A study of Drosophila melanogaster with 6 samples.

Results

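The genes described here are 9 genes of the fly's blood cells and of the proteins those cells make, found by their symbols among the 15010 genes of the deposited table: Hml, NimC1, eater, Pxn, He, Cg25C, vkg, PPO1 and PPO2. All 9 were present, and all 9 passed the filter on low values. Polyadenylated RNA of adult Drosophila melanogaster progeny was sequenced in 6 libraries labelled intestine, and expression is given in TPM, a transcript abundance scaled for gene length and library size. The 3 control libraries came from progeny of MTD-GAL4/+ mothers, and the 3 InR-DN libraries from progeny of MTD-GAL4/InR-DN mothers. All mothers were mated with wild-type Oregon R males. MTD-GAL4 drives expression in the female germline, and InR-DN is a dominant-negative insulin receptor. Both groups of mothers carried the driver, and progeny can inherit either transgene, so an effect of the maternal germline and an effect of an inherited transgene cannot be told apart. The labels give neither the age nor the sex of the progeny. They are also silent on whether replicates came from different flies or crosses, so every p-value covers just the spread among these samples, which may be technical.

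The blood cells of the fly, the hemocytes, are mostly plasmatocytes, macrophage-like cells that take up microbes and dead cells and lay down extracellular matrix. Crystal cells are a smaller class that stores prophenoloxidases, the enzyme precursors that make melanin at wounds and around invaders. Lamellocytes, a flat cell type best known from larvae infected by parasitoid wasps, are rarely seen otherwise. In the adult, hemocytes are few and sessile, and some sit along the gut, where they are known to signal to the intestinal epithelium. The type IV collagens made by plasmatocytes are also made by the larval fat body and by follicle cells of the ovary.

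The libraries were not pure intestine by their marker genes. The enterocyte protease gene alphaTry lay at 4767 to 7517 TPM, but the rhodopsin gene ninaE lay at 2249 to 3015 TPM, the oocyte gene osk at 751 to 866 TPM and the yolk protein gene Yp1, a fat body and follicle cell gene, at 6162 to 9482 TPM. Summed over 8 photoreceptor markers, the level was 4149 to 4627 TPM in controls and 3647 to 5006 TPM in the InR-DN group. The sum over 3 oenocyte markers was 10313 to 11704 TPM in controls and 7374 to 10171 TPM in the InR-DN group. These ranges did not overlap, as for 3.78% of single genes tested in this direction. All 3 oenocyte markers had an unadjusted limma p under 0.05, as did 3.15% of all genes tested, and none passed after adjustment. For 12 follicle cell markers it was 237 to 1613 TPM in controls and 679 to 1176 TPM in the InR-DN group. No gene of these lists was at 0 in every library. The values below therefore describe hemocyte transcripts in these mixed libraries, and their source tissue was not tested. In bulk RNA, fewer cells of a type and less RNA per cell cannot be told apart.

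Transcripts of all 9 genes were present in every library, and none of the 9 genes passed the test between the groups. The groups overlapped for 9 of 9 genes, whereas they did not overlap for 6.36% of the 10816 genes tested (2.58% higher and 3.78% lower in the InR-DN group). No gene passed an adjusted p of 0.05 in limma with Benjamini-Hochberg adjustment over all genes (0% of those tested), and 341 genes (3.15%) had an unadjusted p under 0.05, none of them among the 9. In a second limma fit, voom on recovered reads, 0 genes passed and 334 had an unadjusted p under 0.05. Of the 9 genes, 7 had a higher and 2 a lower mean log2 value in the InR-DN group, beside 5901 higher and 4915 lower among all genes tested. The median log2 fold change was 0.03, beside 0.01 over all genes tested. Fold changes are on the log2(TPM + 1) scale, which understates the change of low genes, and are InR-DN minus control. An exact permutation test of 3 against 3 libraries cannot go below p = 0.1.

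**Figure D1:**
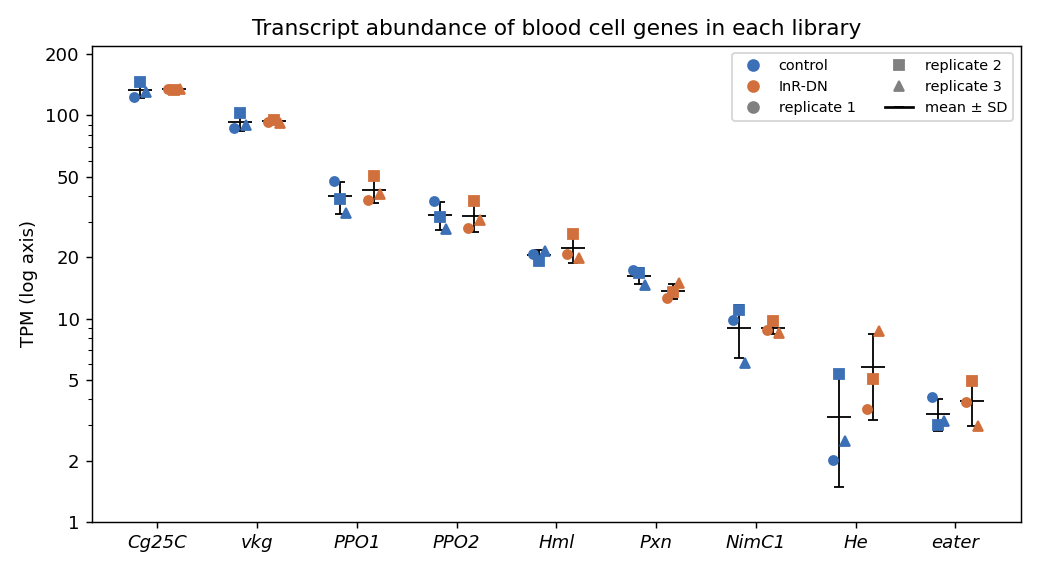
TPM (log axis) of each gene in the 3 control libraries (blue) and the 3 InR-DN libraries (orange), with the mean and SD of each group in black. The collagen genes Cg25C and vkg lie highest, He and eater lowest, and the groups overlap for every gene shown.

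Genes of plasmatocytes, or of hemocytes in general, come first. Hml encodes hemolectin, a large secreted protein of the hemolymph clot, and its promoter is widely used to mark plasmatocytes (FBgn0029167; arm 3L, 13846054 to 13860001 in the BDGP6.54 annotation). Hml lay at 20.8, 19.2 and 21.6 TPM in control replicates 1 to 3 and at 20.7, 26.1 and 19.9 TPM in InR-DN replicates 1 to 3. InR-DN replicate 2 was the highest and the other 5 libraries lay close together. Hml averaged 20.5 ± 1.22 TPM in controls and 22.2 ± 3.35 TPM in the InR-DN group (SD, n = 3 per group). The log2 fold change was 0.10, with a 95% interval of -0.19 to 0.39 (limma adjusted p = 1.00). The interval bounds the fold between 0.878 and 1.31. Behind these values stood 4129 to 6859 reads per library, so counting error was small against the spread between libraries: the coefficient of variation over the 6 libraries was 11.4%, of which counting alone gives 1.40%.

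NimC1 and eater encode surface receptors with EGF-like Nimrod repeats that plasmatocytes use to bind and take up bacteria. NimC1 (FBgn0259896; arm 2L, 13973158 to 13976769) lay at 9.89, 11.1 and 6.04 TPM in control replicates 1 to 3 and at 8.79, 9.67 and 8.50 TPM in InR-DN replicates 1 to 3. Control replicate 3 stood below the other 5 libraries, and the control range enclosed all 3 InR-DN values. The InR-DN mean of NimC1, 8.99 ± 0.612 TPM, was 0.998 times the control mean, whose SD was 2.63 TPM (n = 3 per group). The log2 fold change was 0.03 (95% interval -0.46 to 0.52, limma adjusted p = 1.00). Without control replicate 3 the log2 fold change of NimC1 turned to -0.20, still not called (limma adjusted p = 0.975).

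The receptor gene eater (FBgn0243514; arm 3R, 27095867 to 27099679) lay at 4.10, 2.99 and 3.14 TPM in control replicates 1 to 3 and at 3.90, 4.94 and 2.97 TPM in InR-DN replicates 1 to 3. Both the highest and the lowest library belonged to the InR-DN group. The log2 fold change of eater was 0.15 (95% interval -0.28 to 0.59, limma adjusted p = 1.00), with 173 to 365 reads per library. The ratio of NimC1 to eater, 2 receptors of the same cell type, ranged from 1.93 to 3.71 over the libraries.

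Pxn encodes peroxidasin, a heme peroxidase of the extracellular matrix that cross-links collagen IV (FBgn0011828; arm 3L, 2601455 to 2630064). Pxn lay at 17.4, 16.7 and 14.6 TPM in control replicates 1 to 3 and at 12.7, 13.5 and 14.9 TPM in InR-DN replicates 1 to 3. It came nearest to a separation of the groups, which overlapped only through control replicate 3 and InR-DN replicate 3. Pxn averaged 16.2 ± 1.46 TPM in controls and 13.7 ± 1.15 TPM in the InR-DN group, and its log2 fold change was -0.23 (standard error 0.11, 95% interval -0.49 to 0.02). The unadjusted limma p of Pxn was 0.0699 and the adjusted p 1.00, and its exact two-sided permutation p was 0.2. Of all genes tested, 88.3% had a smaller absolute log2 fold change. Pxn overlaps 4 other annotated genes, with which it shares 233 exonic bases, and reads there cannot be assigned without knowing whether the counting used strand.

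He encodes hemese, a small glycosylated surface protein of hemocytes (FBgn0028430; arm 2L, 13972096 to 13972947). He lay at 2.00, 5.35 and 2.50 TPM in control replicates 1 to 3 and at 3.60, 5.04 and 8.67 TPM in InR-DN replicates 1 to 3. The highest library, InR-DN replicate 3, stood 4.33-fold above the lowest, control replicate 1. These values rest on 25, 84 and 39 reads in the controls and 43, 76 and 103 reads in the InR-DN group, since He has only 673 exonic bases. The 95% exact Poisson intervals of control replicate 1 (1.30 to 2.95 TPM) and InR-DN replicate 3 (7.08 to 10.5 TPM) did not overlap, and they cover counting error only. He averaged 3.28 ± 1.81 TPM in controls and 5.77 ± 2.61 TPM in the InR-DN group. Its log2 fold change of 0.67 was the largest of the 9 genes and did not pass (standard error 0.36, 95% interval -0.19 to 1.54, limma adjusted p = 1.00). The interval reaches a 2.90-fold higher value of TPM + 1, so a large rise of He is not excluded. He varied more between libraries than 96.3% of the genes tested, with a coefficient of variation of 53.6% against 12.8% from counting and a median of 10.6% over all genes tested.

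He and NimC1 are neighbours on the same strand, 210 bases apart, at one end of the Nimrod gene cluster, and their levels did not run in parallel. The ratio of He to NimC1 was 0.202, 0.483 and 0.414 in control replicates 1 to 3 and 0.410, 0.521 and 1.02 in InR-DN replicates 1 to 3. The groups overlapped, and the ratio varied 5.04-fold over the libraries. He shares 78 of its 673 exonic bases with NimB5, a Nimrod gene on the opposite strand. Reads there cannot be assigned without knowing whether the counting used strand. NimB5 lay at 12.3, 12.8 and 11.1 TPM in control replicates 1 to 3. In InR-DN replicates 1 to 3 it lay at 11.9, 16.1 and 12.6 TPM. The part of NimB5 reads in the levels of He, and so in its ratio to NimC1, was not tested.

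**Figure D2:**
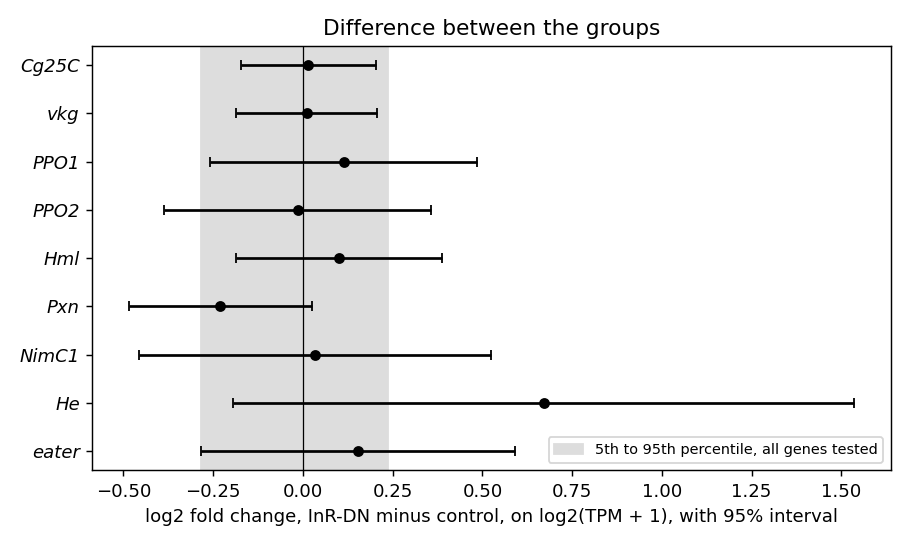
Log2 fold change of each gene (InR-DN minus control, on log2(TPM + 1)) with its 95% interval from the limma fit; the grey band spans the 5th to 95th percentile of all 10816 genes tested, -0.28 to 0.24. Every interval includes 0, the intervals of Cg25C and vkg are the narrowest, and the interval of He is the widest.

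Cg25C and vkg encode the chains of type IV collagen, the main structural protein of basement membranes. The genes lie head to head, 1417 bases apart on arm 2L. Cg25C, now named Col4a1 (FBgn0000299; 5029609 to 5037279), lay at 123, 147 and 131 TPM in control replicates 1 to 3 and at 135, 133 and 136 TPM in InR-DN replicates 1 to 3. The 3 InR-DN libraries fell within the control range. vkg (FBgn0016075; 5012144 to 5028191) lay at 86.3, 103 and 89.7 TPM in control replicates 1 to 3 and at 93.1, 95.2 and 92.0 TPM in InR-DN replicates 1 to 3, again within the control range.

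The collagen genes set the tightest limits of the 9 genes. Cg25C averaged 133 ± 11.9 TPM in controls and 135 ± 1.57 TPM in the InR-DN group, and the 95% interval of its fold was 0.887 to 1.15 (log2 fold change 0.02, limma adjusted p = 1.00). For vkg the means were 93.0 ± 8.78 and 93.4 ± 1.61 TPM, and the interval of the fold was 0.879 to 1.15 (log2 fold change 0.01, limma adjusted p = 1.00). Both genes were lowest in control replicate 1 and highest in control replicate 2. Their ratio was nearly fixed, at 1.43, 1.42 and 1.46 in control replicates 1 to 3 and at 1.46, 1.40 and 1.47 in InR-DN replicates 1 to 3. The highest ratio of Cg25C to vkg was 1.06-fold above the lowest. The coefficients of variation of Cg25C (5.70%) and vkg (6.06%) lay below the median of 10.6% over all genes tested.

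PPO1 and PPO2 encode the prophenoloxidases of crystal cells, copper enzymes that oxidise phenols on the way to melanin once clipped by serine proteases. PPO1 (FBgn0283437; arm 2R, 17887220 to 17889973) lay at 47.6, 39.0 and 33.3 TPM in control replicates 1 to 3 and at 38.4, 50.1 and 40.8 TPM in InR-DN replicates 1 to 3. The levels of the groups overlapped over most of their range. PPO1 averaged 39.9 ± 7.21 TPM in controls and 43.1 ± 6.19 TPM in the InR-DN group, a log2 fold change of 0.11 (95% interval -0.26 to 0.49, limma adjusted p = 1.00). PPO2 (FBgn0033367; arm 2R, 9042261 to 9044709) lay at 38.1, 31.5 and 27.8 TPM in control replicates 1 to 3 and at 27.9, 38.0 and 30.5 TPM in InR-DN replicates 1 to 3. Control replicate 1 and InR-DN replicate 2 were the 2 highest libraries for PPO1 and for PPO2 alike. PPO2 averaged 32.5 ± 5.23 TPM in controls and 32.1 ± 5.29 TPM in the InR-DN group, a log2 fold change of -0.01 (95% interval -0.39 to 0.36, limma adjusted p = 1.00).

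The prophenoloxidase genes kept close to each other across libraries, and PPO1 lay above PPO2 in 6 of 6. The ratio of PPO1 to PPO2 was 1.25, 1.24 and 1.20 in control replicates 1 to 3 and 1.38, 1.32 and 1.34 in InR-DN replicates 1 to 3. The ratio averaged 1.23 ± 0.0262 in controls and 1.35 ± 0.0307 in the InR-DN group, and the groups did not overlap. Counting error alone gives a standard deviation of 3.47% for 1 library's ratio. The exact two-sided permutation p of this difference was 0.1, the smallest that 3 against 3 libraries can give, and 0.6 after Benjamini-Hochberg adjustment over the 6 ratios computed. The pairs were chosen with the levels in view. PPO1 and PPO2 are paralogs, and the handling of reads common to both during counting is not known here.

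**Figure D3:**
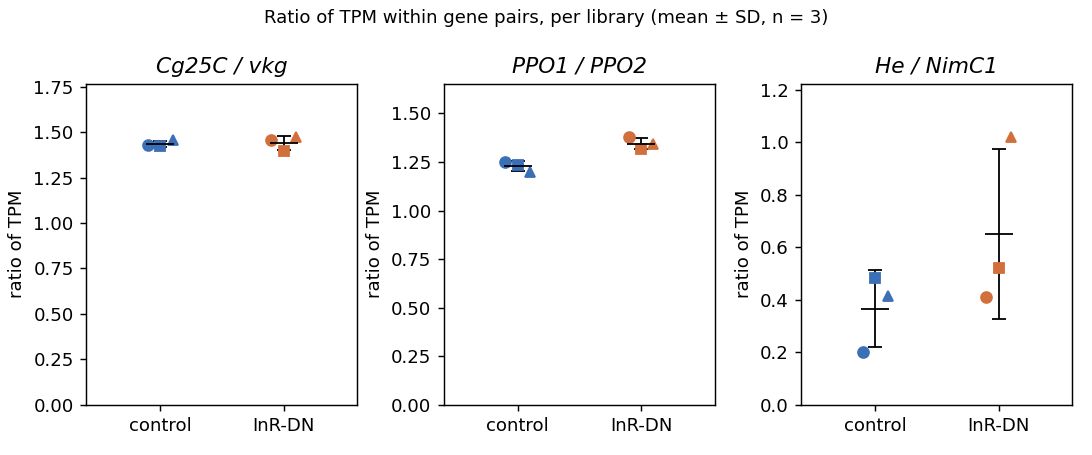
Ratio of TPM in each library for the adjacent collagen genes, the prophenoloxidase paralogs and the neighbours He and NimC1, with mean and SD per group (n = 3); each axis starts at 0. Cg25C to vkg stays between 1.40 and 1.47, PPO1 to PPO2 lies at 1.20 to 1.25 in controls and 1.32 to 1.38 in the InR-DN group, and He to NimC1 spreads from 0.202 to 1.02.

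By level per gene length, most neighbours in the order of the 9 genes kept their places in every library, except NimC1, He and eater. Cg25C lay above vkg and vkg above PPO1 in 6 of 6 libraries, with ranges that did not overlap. PPO1 and PPO2 had overlapping ranges. PPO2 lay above Hml, Hml above Pxn and Pxn above NimC1 in 6 of 6 libraries, again with separate ranges. NimC1 lay above He in 5 of 6 libraries and He above eater in 3 of 6, and the ranges of both pairs overlapped. By mean TPM over all libraries Cg25C ranked number 1173 of the 15010 genes, PPO1 number 4633, Hml number 6841 and eater number 9348.

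The sum over the 5 genes Hml, NimC1, eater, Pxn and He was 52.5 ± 4.02 TPM in controls and 54.6 ± 4.77 TPM in the InR-DN group. The collagen pair summed to 226 ± 20.7 TPM and 228 ± 0.470 TPM, and the prophenoloxidase pair to 72.4 ± 12.4 TPM and 75.2 ± 11.5 TPM. In each case the difference between the means was smaller than the control SD. The ratio of PPO1 to Hml, a crystal cell gene against a plasmatocyte gene, averaged 1.95 ± 0.378 in controls and 1.94 ± 0.101 in the InR-DN group.

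**Figure D4:**
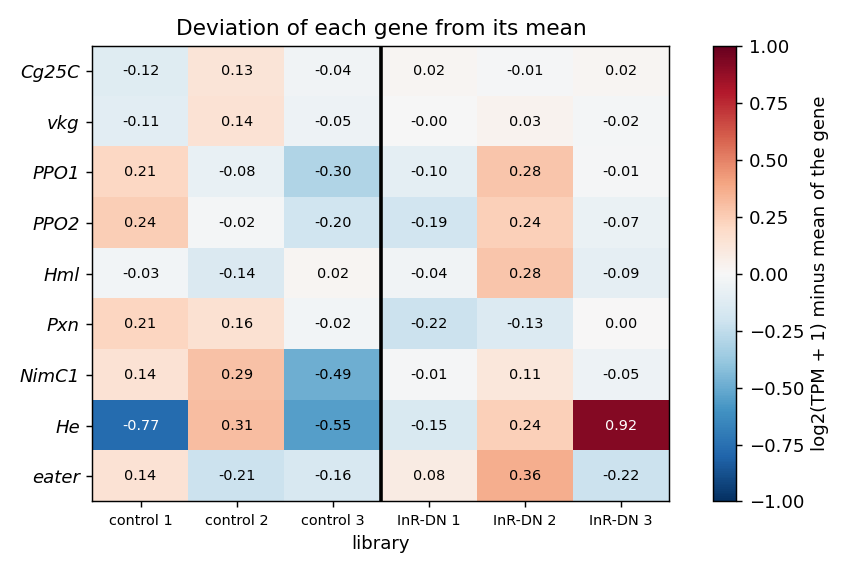
Deviation of log2(TPM + 1) in each library from the gene's mean over the 6 libraries, with control libraries left of the line and InR-DN libraries right of it. Cg25C and vkg share 1 pattern and PPO1 and PPO2 another, InR-DN replicate 2 is high for Hml, eater, PPO1 and PPO2, and He swings from -0.77 to 0.92.

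The genes Hml, NimC1, eater, Pxn and He did not rise and fall together over the libraries. InR-DN replicate 2 was the highest library for Hml, eater and PPO1, control replicate 2 for NimC1, Cg25C and vkg, control replicate 1 for Pxn and PPO2, and InR-DN replicate 3 for He. InR-DN replicate 2 was also the highest library for the flight muscle genes TpnC4 (117 TPM, against 77.8 to 93.9 TPM in the other 5 libraries) and fln (62.7 TPM), and for ninaE at 3015 TPM. The remaining photoreceptor markers were also highest there, except norpA, highest in InR-DN replicate 1, and trp, highest in control replicate 2. Fat body markers were mixed, with AkhR highest in InR-DN replicate 2 at 53.5 TPM and Yp1 highest in control replicate 2. The sum over 3 flight muscle markers was 149 to 178 TPM in controls and 154 to 217 TPM in the InR-DN group, with no marker at 0. The part of these tissues in the levels of Hml, eater and PPO1 was not tested.

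Likeness of profile was measured as the root-mean-square difference of centred log2(TPM + 1) values over the 6 libraries, against each of 10815 other genes tested. The genes nearest to Hml were cu (0.0167), whd (0.0343), CG18003 (0.0397), CG14661 (0.0432) and CG9507 (0.0432). None of the other 8 blood cell genes was close to Hml: eater ranked number 1243 at 0.132, and NimC1 ranked number 9070 at 0.290. The genes nearest to PPO1 were lectin-24Db (0.0297), tsl (0.0473), CG4259 (0.0515), CG10553 (0.0548) and swi2 (0.0609), and PPO2 ranked number 11 at 0.0688. All profiles share the same 6 libraries, and genes that vary little lie near each other by this measure.

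Genes of related processes gave no call either. In 6 lists of related genes, holding 103 genes in the table, no tested member passed the limma test in either direction, as 0% of all genes did. Among plasmatocyte receptors and phagocytosis genes, 18 of 22 were tested, 10 higher and 8 lower by mean log2 value (median log2 fold change 0.01), and none had an unadjusted p under 0.05. The smallest p belonged to the scavenger receptor gene Sr-CIV, at 2.75, 2.78 and 2.39 TPM in control replicates 1 to 3 and 1.70, 1.86 and 2.49 TPM in InR-DN replicates 1 to 3, a log2 fold change of -0.28. NimB4, a secreted Nimrod protein gene, had a log2 fold change of 0.21. The most abundant were ced-6, an adaptor for engulfment, at 235 to 268 TPM, and crq, a CD36-family receptor for dead cells, at 147 to 191 TPM.

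Regulators of blood cell fate and survival had 14 of 16 members tested, 6 higher and 8 lower by mean log2 value (median log2 fold change -0.04). Of these, 1 had an unadjusted limma p under 0.05, as did 3.15% of all genes tested. It was upd3, a cytokine gene of the JAK-STAT pathway that hemocytes and gut cells make. Its levels were 1.07, 1.70 and 1.18 TPM in control replicates 1 to 3. In InR-DN replicates 1 to 3 they were 3.83, 2.27 and 1.61 TPM. The groups overlapped for upd3 through control replicate 2 and InR-DN replicate 3, and its log2 fold change of 0.59 did not pass (limma adjusted p = 1.00). The zinc finger gene peb had a log2 fold change of -0.08. The most abundant were Jra, the fly Jun, at 55.7 to 72.8 TPM and the Janus kinase gene hop at 41.3 to 56.4 TPM. The crystal cell factor lz lay at only 0.781 to 1.09 TPM, next to PPO1 and PPO2 at 27.8 to 50.1 TPM.

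The list of melanization and related genes had 20 of 21 members tested, 12 higher and 8 lower by mean log2 value (median log2 fold change 0.01). Hayan, a serine protease that leads to prophenoloxidase activation, was the only member with an unadjusted limma p under 0.05. Over all genes tested the share was 3.15%. Hayan lay at 4.94, 5.61 and 5.48 TPM in control replicates 1 to 3 and at 5.93, 7.48 and 7.03 TPM in InR-DN replicates 1 to 3, and the groups did not overlap, as for 2.58% of all genes tested in this direction. Its log2 fold change of 0.30 did not pass (unadjusted p = 0.0419, limma adjusted p = 1.00). Spn27A, a serpin that holds melanization in check, had a log2 fold change of -0.12. The most abundant were Dat, an arylalkylamine acetyltransferase gene, at 55.8 to 71.5 TPM and the protease gene MP1 at 54.6 to 73.4 TPM. PPO3, the prophenoloxidase of lamellocytes, lay at 1.23 to 2.40 TPM, well below PPO1 and PPO2.

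The basement membrane list, the partners of Cg25C, vkg and Pxn, had 26 of 26 members tested, 12 higher and 14 lower by mean log2 value (median log2 fold change -0.01), and none with an unadjusted p under 0.05. Plod, a lysyl hydroxylase that collagen IV needs for its secretion, lay at 88.8, 87.9 and 83.4 TPM in control replicates 1 to 3 and at 91.2, 105 and 94.8 TPM in InR-DN replicates 1 to 3. The groups did not overlap for Plod, but its log2 fold change of 0.16 did not pass (unadjusted p = 0.0792, limma adjusted p = 1.00). The groups did not overlap for 4 of the 26 members, beside 6.36% of all genes: Plod, the collagen gene Mp and the matrix metalloproteinase gene Mmp1 lay higher and loh lower in the InR-DN group. Glt, a glutactin gene, had a log2 fold change of 0.16. The most abundant were Rab10, a trafficking GTPase gene, at 184 to 215 TPM and BM-40-SPARC, a collagen-binding matrix protein gene, at 157 to 209 TPM.

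Clotting and hemolymph proteins had 9 of 14 members tested, 7 higher and 2 lower by mean log2 value (median log2 fold change 0.08). Rfabg, the apolipophorin gene of the fat body, ranged from 278 to 456 TPM (log2 fold change 0.34), and the clot gene fon had 0.18. Neither passed the limma test (adjusted p = 1.00 for both). Idgf4, a chitinase-like secreted protein gene, lay at 293 to 341 TPM. The lamellocyte list had 4 of 5 members tested, 1 higher and 3 lower by mean log2 value (median log2 fold change -0.02). Its most abundant gene, atilla, lay at 102 to 131 TPM, cher, the filamin gene, had a log2 fold change of -0.03, and the kinase gene msn lay at 60.3 to 75.9 TPM. PPO3 lay at 2.40 TPM or less. ItgalphaPS4, an integrin gene of this list too low to be tested, lay at 0.438 to 1.15 TPM. Both stood far below atilla.

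**Figure D5:**
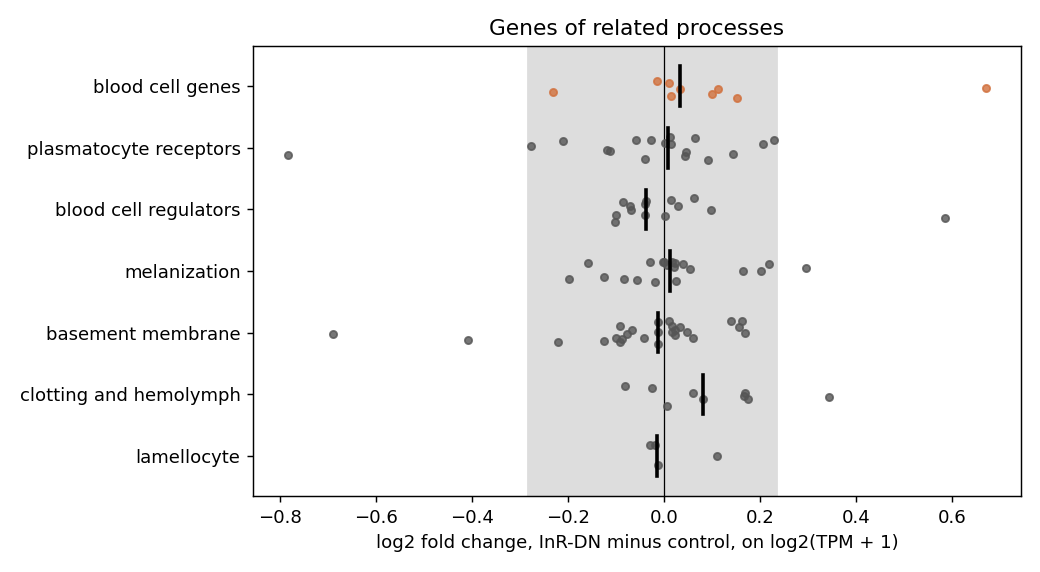
Log2 fold changes (InR-DN minus control, on log2(TPM + 1)) of the 9 blood cell genes (orange) and of the tested members of 6 related lists (grey points), with each median as a black bar and the 5th to 95th percentile of all genes tested as a grey band. Medians lie between -0.04 and 0.08, and no gene passed the test.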

How the data were processed

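The authors deposited TPM values of 15010 genes for all 6 libraries in a single table, per the file headers; every library adds up to 1000000. The submitters' processing notes name TopHat and edgeR, with no version or role. Genome build, annotation, read counter and use of strand: not given in the sources used here. The column names give a group letter and a replicate number, which matched the sample titles. Symbols were matched to BDGP6.54 by current (11527) or older symbol (3330), and 153 were left unmatched. TPM multiplied by exon length gave whole reads for 94.7% of 14857 genes (relative tolerance 1e-06), all 9 described genes included. These reads summed to 31593965 to 42022916 per library.

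log2(TPM + 1) values were fitted with limma 3.58.1 (R 4.3.3, eBayes with trend) and no term but group. A gene was tested where 3 or more libraries reached 1 TPM, which kept 10816. It was tested on simulated data. No 2 replicates agreed within sampling noise (chi-square per degree of freedom 22.5 or more). The 9 genes, the lists and the rules were chosen with earlier results of these data known. The named genes are the 9, for each related list the 2 with the smallest p and the 2 most abundant, the 2 most abundant of each other-tissue list, and the 5 nearest in profile to Hml and PPO1. Named beyond that rule after their values were seen were lz, NimB5, PPO3, gcm, gcm2, NimC4, prc, Ndg, Mp, Mmp1, loh, norpA, trp, AkhR, CG31219, Obp19c and CG11034. ItgalphaPS4 was named likewise. Of the other-tissue lists, only some genes are printed. The 16 alternatives were 2 pseudocounts, 2 filters, 2 scalings, 2 variance models, a replicate block, voom on reads (10 or more in 3 or more libraries) and leaving out each library.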

Additional observations from a re-analysis of the deposited data

How the results depend on the processing

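None of the 9 genes passed an adjusted p of 0.05 in any of the alternatives that tested it (16 each, 15 for eater, which the filter of 5 TPM removed). The count of genes passing, 0 in the main setting, was 1 with a pseudocount of 0.1 (CG31219), and 0 to 1 when 1 library was left out (Obp19c without control replicate 1, CG11034 without InR-DN replicate 1). The count with an unadjusted p under 0.05, 341, was 567 with no filter and 220 with the filter of 5 TPM, which also change the number of genes tested, and 254 to 935 when 1 library was left out, 935 without InR-DN replicate 2; the cause was not tested. Quantile normalization turned Cg25C to -0.0096 and vkg to -0.021. Leaving out 1 library moved the log2 fold change of Hml between -0.015 and 0.17, NimC1 between -0.20 and 0.19, Cg25C between -0.040 and 0.084, vkg between -0.041 and 0.085, PPO1 between -0.0075 and 0.24, and PPO2 between -0.14 and 0.10, so the sign of these 6 is not settled. The signs of eater (0.01 to 0.30), Pxn (-0.30 to -0.18) and He (0.38 to 0.99) held. He lay at 0.38 without InR-DN replicate 3 and at 0.45 without control replicate 1, and at 0.37 with a pseudocount of 5. Pxn had an unadjusted p of 0.0391 without control replicate 3 and 0.0465 with quantile normalization, and He 0.0190 without control replicate 2. When 1 library was left out, list medians lay between -0.033 and 0.077 for lamellocytes, -0.098 and 0.056 for melanization, -0.072 and 0.042 for regulators, -0.027 and 0.031 for plasmatocyte receptors, -0.045 and 0.017 for basement membrane, and 0.0020 and 0.17 for clotting, so the sign held only for clotting. With a replicate block 0 genes passed and 362 had an unadjusted p under 0.05. Same-numbered libraries deviated from their group means with correlations of -0.41, -0.18 and -0.13 over 10816 genes, and 0 of 3 control libraries correlated best with their own number. With only 3 libraries per group, this measure cannot decide whether the numbers pair the samples. Depth limited He most, with 25 reads in its lowest library.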

Other observations

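Control replicate 1 was the highest library for NimC4, gcm and gcm2. NimC4, also called simu, a receptor for dead cells best known from embryonic macrophages and glia, lay at 7.94, 0.401 and 1.35 TPM in control replicates 1 to 3 and at 0.440, 0.139 and 2.52 TPM in InR-DN replicates 1 to 3. The glial and hemocyte transcription factor gene gcm lay at 1.44, 0.0197 and 0.298 TPM in control replicates 1 to 3 and at 0.0519, 0.0411 and 0.313 TPM in InR-DN replicates 1 to 3, on 1 to 58 reads per library. Its paralog gcm2 was also highest in control replicate 1, at 0.370 TPM, and had 0 reads in InR-DN replicate 2. Of the 9 blood cell genes, Pxn and PPO2 were also highest in control replicate 1, and the other 7 were not. The glial genes repo (4.22 to 5.23 TPM) and moody (16.6 to 21.4 TPM) were highest in InR-DN replicate 2 and control replicate 2.

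The basement membrane gene prc, which encodes pericardin, a collagen-like protein of the heart, lay at 3.60, 3.96 and 4.68 TPM in control replicates 1 to 3 and at 4.18, 0.307 and 3.58 TPM in InR-DN replicates 1 to 3. The nidogen gene Ndg was also lowest in InR-DN replicate 2, at 4.87 TPM against 8.06 to 19.0 TPM in the other 5 libraries. The heart gene Hand lay at 11.9 TPM in InR-DN replicate 2, within its range of 10.1 to 13.3 TPM. These genes were singled out after their values were seen, and no difference between libraries was tested.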
